A study of Homo sapiens with 12 samples.

Results

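This is an account of 38 genes that encode the enzymes and carriers of the tricarboxylic acid (TCA) cycle, of pyruvate entry and of malate and citrate export. They are taken by gene name from 36601 genes in the deposited table, by a list that was drawn up with earlier results of these data known. A gene was tested when its mean over the 12 libraries reached 10 normalized counts, which held for 36 of the 38 and for 15376 genes in all. The 2 that stayed under it were OGDHL, with 3.07 to 17.8 normalized counts per library, and PDK4, with 0 to 1.15. The next member above the limit, PDK3, had 229 to 542.

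Pyruvate made by glycolysis crosses the inner mitochondrial membrane through the MPC1-MPC2 carrier and is either turned into acetyl-CoA by the pyruvate dehydrogenase (PDH) complex or carboxylated to oxaloacetate. Citrate synthase joins both products, and the cycle then oxidises citrate back to oxaloacetate while it passes electrons to NAD and FAD. Citrate and malate also leave the mitochondria. In the cytosol, ATP citrate lyase makes acetyl-CoA from citrate, and the malic enzyme ME1 makes NADPH from malate. Tumour cells draw on these exits for lipid synthesis and redox balance.

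All samples were KP4, a human cell line from a pancreatic ductal cell carcinoma, which the labels give as wild type. The cells were exposed for 24 h to DMSO (vehicle), to 10 mM metformin (Met), an inhibitor of complex I of the respiratory chain, to 5 nM FK866 (FK), an inhibitor of the NAD salvage enzyme NAMPT, or to both (Met+FK), with 3 libraries per treatment. Per the methods, FK866 was suspended in DMSO and metformin was dissolved in medium. No source says whether the 3 libraries of a treatment came from separate cultures, so the p-values below measure the spread between these libraries, which may be technical, and the results hold for 1 line at 1 dose and 1 time.

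The libraries held between 30667735 and 41052203 counted read pairs, and each value is a read pair count divided by a size factor (0.867 to 1.21). In the check of the line's identity, the epithelial keratins KRT18 (9398 to 18721 normalized counts) and KRT8 (2217 to 3222) and the ductal factor SOX9 (3405 to 5140.0) were present. EPCAM (3.78 to 12.5), KRT19 (14.6 to 75) and CDH1 (24.2 to 86.5) were low, and the mesenchymal filament gene VIM was high (93661 to 121917). The acinar and endocrine markers did not pass 2.3 in any library, the T cell marker CD3E reached at most 1.01, and the fibroblast markers DCN and LUM at most 0.985, whereas PTPRC (101 to 304), CD68 (721 to 1009.8), PDGFRA (5.67 to 49.5) and VWF (12.5 to 43.3) were detected. Several summed marker lists moved with treatment. The epithelial sum was 25327 to 26266 in DMSO, 16512 to 19694 in Met, 19378 to 22878 in FK and 16238 to 19672 in Met+FK. In the same order, the mesenchymal sum was 115861 to 125863, 98542 to 103612, 102608 to 113138 and 100365 to 108522, and the leukocyte sum 1101 to 1243, 915 to 974, 949 to 1034 and 955 to 1003. The endothelial sum was 42.4 to 56.3, 21.9 to 35.5, 46.2 to 54.0 and 28.2 to 39.0, and the fibroblast sum 15.8 to 25.6, 6.61 to 14.6, 34.0 to 50.4 and 6.83 to 16.5. Their part in the results was not tested. A second measure that moved with treatment was the dependence of the values on GC content. Per 10 percentage points of GC, a library's log2 values deviated from the mean of all libraries by 0.043 to 0.20 in DMSO, by -0.14 to 0.080 in Met, by -0.25 to 0.0027 in FK and by -0.048 to 0.063 in Met+FK, so the counts of members called are also given below with this trend, and that of transcript length, removed. The isoenzyme shares are not corrected for it.

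The sequences below are the 250 bases before the RefSeq start of the 3 members that rose past 1.5-fold with metformin (IDH1, PCK2 and ME1), printed 5′ to 3′ on the gene's own strand in build GRCh38.p14. They lie at chr2:208254459-208254708 (minus strand), chr14:24094061-24094310 (plus) and chr6:83431052-83431301 (minus). By the gene positions of the deposited table, given below, the IDH1 and PCK2 windows lie inside the gene, past its outermost start. The ME1 window lies directly before its gene. Only 1 start per gene was searched, so windows at other starts may hold other matches. Capitals mark a match to a searched motif.
IDH1: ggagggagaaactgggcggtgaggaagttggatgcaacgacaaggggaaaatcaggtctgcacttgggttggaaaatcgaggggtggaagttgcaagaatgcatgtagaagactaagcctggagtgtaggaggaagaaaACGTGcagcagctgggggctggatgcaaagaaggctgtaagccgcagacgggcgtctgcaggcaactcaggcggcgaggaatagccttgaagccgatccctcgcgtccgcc
PCK2: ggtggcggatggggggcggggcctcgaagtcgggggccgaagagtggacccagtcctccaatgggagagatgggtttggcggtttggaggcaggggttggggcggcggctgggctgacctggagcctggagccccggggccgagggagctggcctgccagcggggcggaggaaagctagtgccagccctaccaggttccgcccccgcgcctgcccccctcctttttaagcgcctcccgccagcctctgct
ME1: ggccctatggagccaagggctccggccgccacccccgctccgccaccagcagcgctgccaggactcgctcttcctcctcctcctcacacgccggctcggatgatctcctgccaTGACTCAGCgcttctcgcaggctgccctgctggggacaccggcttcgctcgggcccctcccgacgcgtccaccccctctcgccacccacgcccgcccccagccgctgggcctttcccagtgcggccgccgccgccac
The IDH1 match is ACGTG, the core of the hypoxia response element, whose first base lies 111 bases before the start. The ME1 match is TGACTCAGC, an instance of TGACNNNGC, the core of the antioxidant response element, 137 bases before the start, and a second such match lies after the start. The PCK2 window holds none of the motifs searched, which were these 2, CACGTG, TGATGNAAN, TCAAGGTCA, GCGCATGCG, TCACNCCAC and GTAAACA, each on both strands. ACGTG lies within CACGTG, so every window with CACGTG also holds ACGTG.

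A promoter window of 300 bases, with 50 after the start, was matched for 36 of the 38 members (not OGDH and PDP1). Of these, 9 hold ACGTG, against 21.6% of 27305 promoters, and 6 hold TGACNNNGC, against 13.6%. CACGTG, the E-box, is in 4 of the 36 and in 7.44% of all promoters. TGATGNAAN, the composite element of ATF4 and C/EBP, is in 1 (SLC25A11) and in 3.67% of all. No member window holds the remaining 4, which are in 0.359%, 2.1%, 1.15% and 3.41% of all promoters. These are matches of letters in a short window and describe the sequence only.

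Metformin against DMSO changed 23 of these genes, most of them downwards, while IDH1 and PCK2 rose nearly 3-fold. With limma-trend on log2(normalized count + 1) and Benjamini-Hochberg adjustment over all 15376 genes, 6 of the 36 rose and 17 fell at an adjusted p-value under 0.05. Of all genes tested, 24.9% were called higher and 25.9% lower, so the members that rose, 16.7%, were fewer than that background and those that fell, 47.2%, were more. The median log2 fold change was -0.20 over the members and 0.012 over all genes. A fold change over 1.5 was reached as well by 8 members, 3 higher (IDH1, PCK2, ME1) and 5 lower (SLC25A10, SLC25A1, IDH3G, ACLY, PDK2), that is 22.2% of them against 23% of all genes. The heat map shows all 36 by library. Because 1 is added before the logarithm, small counts yield fold changes that are too small.

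**Figure D1:**
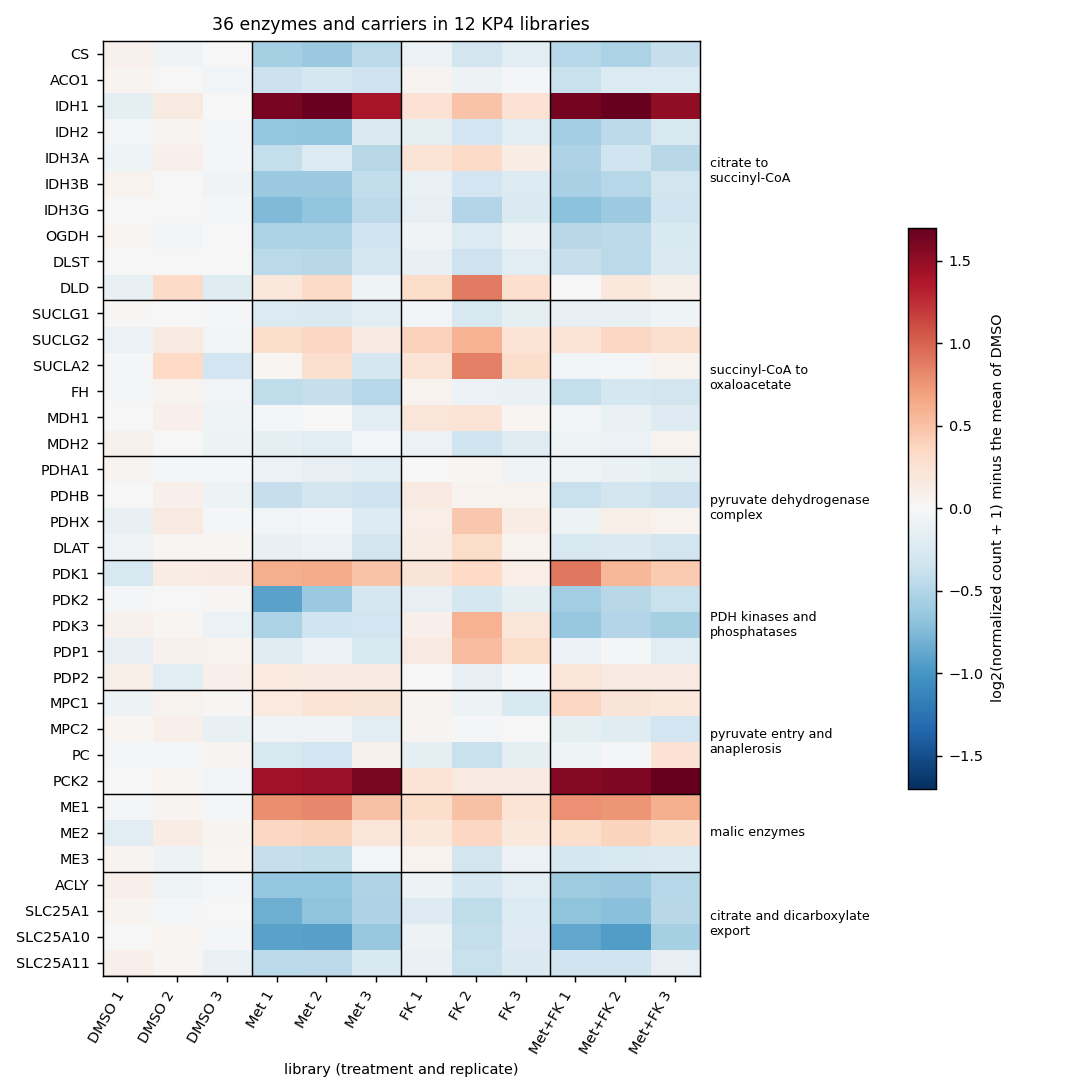
Log2(normalized count + 1) minus the mean of the 3 DMSO libraries, for the 36 tested members (rows, by role) in 12 libraries (columns), red for higher and blue for lower. IDH1 and PCK2 are red in all Met and Met+FK libraries, and the rows from citrate to succinyl-CoA and of citrate and dicarboxylate export are mostly blue there.

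In the steps from citrate to succinyl-CoA, 8 of the 10 tested members fell with metformin and 1 rose (25.9% and 24.9% of all genes). The 1 that rose was IDH1 (ENSG00000138413, chr2:208236227-208266074), the NADP-dependent isocitrate dehydrogenase of cytosol and peroxisomes. Its normalized counts were 1679, 2079.9 and 1886 in the DMSO libraries, 5723, 6005 and 4960.2 in Met, 2213, 2631 and 2217 in FK, and 5787, 6271 and 5310.3 in Met+FK. Both treatments with metformin stood apart from both without it, and FK lay above DMSO with no overlap. The rise with Met was 2.96-fold, a log2 fold change of 1.56 (SE 0.10, adjusted p = 4.14e-08).

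The 3 subunit genes of the NAD-dependent enzyme of the cycle moved the other way. IDH3G (ENSG00000067829, chrX:153785766-153794523), a regulatory subunit, had 2938, 2913 and 2883 normalized counts in DMSO, 1732, 1837 and 2146 in Met, 2644, 2062 and 2447 in FK, and 1799, 1899 and 2303 in Met+FK. Each Met and each Met+FK library was below the DMSO libraries, as was each FK library, and the fall with Met was 1.53-fold (log2 -0.62, SE 0.11, adjusted p = 0.000338). IDH3A (ENSG00000166411, chr15:78131498-78171945), the catalytic subunit, had 2361, 2642 and 2462 in DMSO, 1886, 2114 and 1786 in Met, 2928, 3127 and 2714 in FK, and 1723, 1964 and 1784 in Met+FK. Here FK was the highest group and both metformin groups were the lowest, with no overlap with DMSO (Met log2 -0.37, SE 0.087, adjusted p = 0.00259). IDH3B, the other regulatory subunit, fell with Met by 0.56 on the log2 scale (adjusted p = 0.00013), from 2903 ± 129 to 1976 ± 170 normalized counts (mean ± SD, n = 3, as for all such pairs below). IDH3G shares exon sequence with SSR4 on the other strand (mean 3104) and IDH3A with CIB2 (mean 389), and without the strand setting of the counting these reads cannot be told apart.

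IDH2, the mitochondrial NADP-dependent isoenzyme, fell from 1335 ± 36.7 in DMSO to 937 ± 163 in Met (log2 -0.52, adjusted p = 0.00135). Per kilobase of transcript, IDH1 stood at 812 ± 86.5 normalized counts in DMSO and 2399.8 ± 233 in Met, and IDH2 at 502 ± 13.8 and 352 ± 61.5. IDH1 thus made up 61.7% ± 2.08 of the sum of both in DMSO, 87.1% ± 3.12 in Met, 70.2% ± 3.29 in FK and 86.9% ± 2.01 in Met+FK. With the summed length of all annotated exons instead of 1 transcript, its share was 45.4% in DMSO and 77.8% in Met. Which of them was the more abundant in DMSO thus depends on the length taken. In a family of 2 the direction of a change in share is the same for any lengths, so the second length does not test it. The bar plot gives the shares in this and other isoenzyme families.

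**Figure D2:**
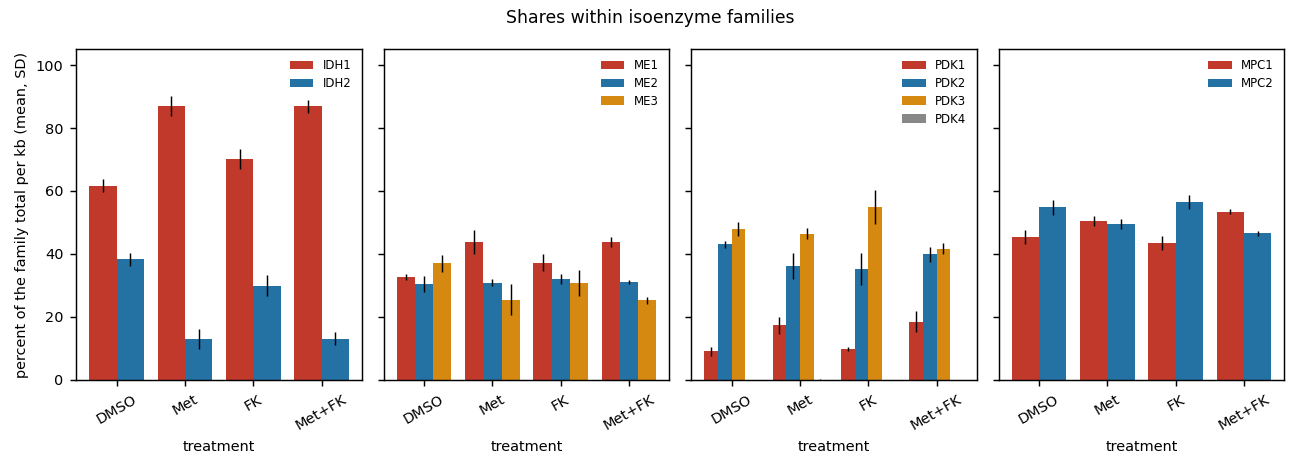
Share of each isoenzyme in the summed normalized counts per kb of its family (vertical axis, percent, bars from 0), by treatment, for IDH1-IDH2, the malic enzymes, the PDH kinases and the pyruvate carrier; bars are means and lines SD of 3 libraries. The IDH1 bar rises from 61.7% in DMSO to 87.1% in Met, and PDK1 from 9.12% to 17.4%.

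Citrate synthase (CS), which opens the cycle, fell from 15599 ± 749 to 10626 ± 625 (log2 -0.55, SE 0.074, adjusted p = 2.65e-05), and no Met library overlapped DMSO. OGDH, the E1 subunit of the 2-oxoglutarate dehydrogenase complex, fell from 17596 ± 461 to 12704 ± 1099 (log2 -0.47), and DLST, its E2 subunit, from 5863 ± 39.9 to 4438 ± 304 (log2 -0.40). ACO1, the cytosolic aconitase that also acts as the iron regulatory protein, fell by 0.34 on the log2 scale (adjusted p = 0.00121). DLD, the E3 subunit that this complex shares with PDH, was not called (log2 0.14, adjusted p = 0.477) and varied within DMSO from 2309 to 3363. OGDHL, the paralogue of OGDH, held at most 0.158% of their sum per kb in any library.

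From succinyl-CoA to oxaloacetate, 1 of 6 rose and 2 fell with metformin, near the shares of all genes (24.9% and 25.9%). Fumarase (FH) fell from 4522 ± 166 to 3335 ± 109 (log2 -0.44, SE 0.071, adjusted p = 0.000142) and no library overlapped. SUCLG1, the alpha subunit common to both succinyl-CoA ligases, fell by 0.22 on the log2 scale (adjusted p = 0.0203), a call lost without DMSO replicate 1, Met replicate 1 or Met replicate 2. SUCLG2, the beta subunit of the GTP-specific ligase, rose by 0.26 (adjusted p = 0.0428), its groups overlapped, and the call was lost in 7 of 12 fits that left out 1 library. SUCLA2, the ATP-specific beta subunit, had 701 ± 163 in DMSO and 699.7 ± 133 in Met. The malate dehydrogenases were not called either. MDH1, of the cytosol, had 5748 ± 313 in DMSO and 5487 ± 391 in Met, and MDH2, of the mitochondria, 16761 ± 891 and 15296 ± 894. MDH2 made up 63.5% of their sum per kb in DMSO and 62.5% in Met.

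In the PDH complex, 1 of 4 members was called with metformin, as lower, near the 25.9% of all genes called lower. PDHB, the beta subunit of E1, fell from 1770.4 ± 106 to 1386 ± 33.5 (log2 -0.35, adjusted p = 0.000989). PDHA1, the alpha subunit, had 6702 ± 203 in DMSO and 6089 ± 178 in Met with no overlap (log2 -0.14, adjusted p = 0.076), and DLAT, the E2 subunit, 3398 ± 115 and 3008 ± 240 (log2 -0.18, adjusted p = 0.0786). PDHX, which binds E3 to the core, differed by -0.10 (adjusted p = 0.442).

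The PDH kinases, which phosphorylate E1 and switch the complex off, did not move together. PDK1 (ENSG00000152256, chr2:172555373-172608669) had 457, 598 and 608 normalized counts in DMSO, 843, 849 and 768 in Met, 643, 695 and 592 in FK, and 1025, 817 and 750.2 in Met+FK. Both metformin groups lay above DMSO and FK, while DMSO and FK overlapped. PDK1 rose 1.49-fold with Met (log2 0.58, SE 0.13, adjusted p = 0.00182), a call lost once the GC and length trend was removed (log2 0.16, adjusted p = 0.302).

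PDK2 (ENSG00000005882, chr17:50094737-50112152) had 619.7, 625 and 632 in DMSO, 332, 403 and 514 in Met, 566, 506 and 562 in FK, and 414, 449 and 479 in Met+FK. All Met and Met+FK libraries were below DMSO, and Met spread more widely than the others, with a fall of 1.52-fold (log2 -0.61, SE 0.13, adjusted p = 0.00119). PDK2 overlaps SAMD14 on the other strand (mean 226). PDK3 (ENSG00000067992, chrX:24465221-24550466) had 379, 367 and 336 in DMSO, 247, 285 and 288 in Met, 380.4, 542 and 417 in FK, and 229, 255 and 243 in Met+FK. FK lay above DMSO, with the nearest libraries at 380.4 and 379, and both metformin groups below it (Met log2 -0.40, adjusted p = 0.0162). The call of PDK3 was lost without DMSO replicate 1 or Met replicate 1. As a share of the 4 kinases per kb, PDK1 went from 9.12% ± 1.44 in DMSO to 17.4% ± 2.66 in Met, PDK2 from 43.0% ± 1.14 to 36.2% ± 4.23, and PDK3 from 47.8% ± 2.29 to 46.3% ± 1.75. Over the length of all annotated exons these shares were 21.6%, 66.4% and 12% in DMSO, so their order is not fixed by these data. Of the phosphatases that reverse the kinases, PDP1 had 5344 ± 444 in DMSO and 4669.9 ± 287 in Met (adjusted p = 0.1), and PDP2 2334 ± 245 and 2576 ± 33.1 (adjusted p = 0.14).

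Among pyruvate entry and anaplerosis, 1 of 4 members rose with metformin and none fell. The share that rose is near that of all genes (24.9% higher, with 25.9% lower). PCK2 (ENSG00000100889, chr14:24094053-24110598), the mitochondrial phosphoenolpyruvate carboxykinase, takes oxaloacetate out of the cycle. Its normalized counts were 1676, 1702 and 1609 in DMSO, 4490.1, 4613 and 5054 in Met, 1952, 1844 and 1850.4 in FK, and 4892, 4983 and 5613 in Met+FK. The metformin groups stood far above the others, and the FK libraries lay just above the DMSO libraries. The rise with Met was 2.84-fold (log2 1.5, SE 0.075, adjusted p = 2.98e-09). Pyruvate carboxylase (PC), which feeds oxaloacetate in, had 1703 ± 52.8 in DMSO and 1519 ± 231 in Met (adjusted p = 0.199). The carrier subunit MPC1 had 506 ± 26.4 and 582 ± 14.5 with no overlap (log2 0.20, adjusted p = 0.0898), and MPC2 1507 ± 112 and 1400.2 ± 67.7 (adjusted p = 0.299).

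The malic enzymes decarboxylate malate to pyruvate, and 2 of 3 rose with metformin (24.9% of all genes). ME1 (ENSG00000065833, chr6:83210402-83431051), the cytosolic enzyme that makes NADPH, had 1809.5, 1911 and 1809.7 in DMSO, 3199, 3242 and 2611 in Met, 2267, 2609.8 and 2173 in FK, and 3157, 3100.3 and 2811 in Met+FK. The groups ranked in the order DMSO, FK, then the metformin groups, and the lowest Met library (2611) was next to the highest FK library (2609.8). Against DMSO the rise with Met was 1.63-fold (log2 0.70, SE 0.095, adjusted p = 3.04e-05). ME2, the NAD-dependent mitochondrial enzyme, rose from 4644 ± 507 to 5747 ± 378 (log2 0.31, adjusted p = 0.00758), and this turned to -0.06 (adjusted p = 0.524) with the GC and length trend removed. ME3, the mitochondrial NADP-dependent enzyme, had 1436 ± 73.7 and 1198 ± 194 (log2 -0.27, adjusted p = 0.0535). Within the family, ME1 went from 32.6% ± 0.87 of the sum per kb to 43.7% ± 3.86, and ME3 from 37.0% ± 2.65 to 25.4% ± 4.95. Over the length of all annotated exons, ME1 held 45.3% and ME3 30.7% in DMSO, so the order of these 2 in DMSO also depends on the length taken. In Met they held 57.2% and 19.9%. Of the 3 genes, ME1 had the highest fold change and ME3 the lowest. The directions of their shares are therefore the same for any lengths, and the second length does not test them.

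All 4 members of citrate and dicarboxylate export fell with metformin (25.9% of all genes). SLC25A10 (ENSG00000183048, chr17:81712236-81721016), the dicarboxylate carrier, had 1522, 1549 and 1473 in DMSO, 806, 799 and 967 in Met, 1429.9, 1145 and 1298 in FK, and 819.5, 781 and 1023 in Met+FK. The metformin groups lay below FK, and FK lay below DMSO. The fall with Met was 1.77-fold (log2 -0.83, SE 0.11, adjusted p = 3.66e-05).

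SLC25A1 (ENSG00000100075, chr22:19175581-19178739), the citrate carrier, had 3444, 3268 and 3310.4 in DMSO, 1877, 2081 and 2318 in Met, 2875, 2486 and 2831 in FK, and 2072, 2048 and 2405 in Met+FK. The order of the groups was the one seen for SLC25A10, with a fall of 1.6-fold in Met (log2 -0.68, SE 0.093, adjusted p = 3.28e-05). ACLY (ENSG00000131473, chr17:41866917-41930542), ATP citrate lyase, had 19975, 17978 and 18588 in DMSO, 11977, 11910.3 and 13219.7 in Met, 17784, 15388 and 16587 in FK, and 12400.3, 12124 and 13430.3 in Met+FK. It fell 1.52-fold with Met (log2 -0.61, SE 0.074, adjusted p = 1.24e-05), with every Met library below every FK and DMSO library. SLC25A11, the oxoglutarate carrier of the malate-aspartate shuttle, fell from 4084 ± 276 to 3123 ± 248 (log2 -0.39, adjusted p = 0.00251). It shares exon sequence with RNF167 on the other strand (mean 3019). The same holds, with neighbours averaging 339 to 2980 normalized counts, for MPC2, MDH1, DLD, PDHX, PC, SUCLA2 and PDHA1. The dot plot sets the 11 genes given library by library beside each other.

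**Figure D3:**
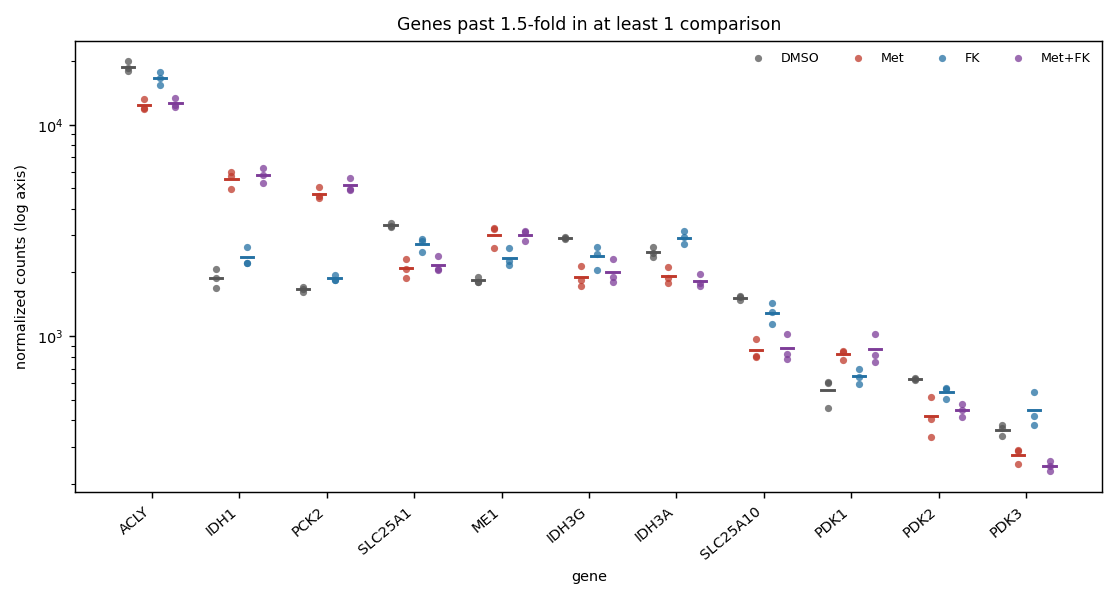
Normalized counts (vertical log axis) of the 11 members past 1.5-fold in at least 1 comparison, with 1 point per library, a bar at the mean of 3, and grey, red, blue and purple for DMSO, Met, FK and Met+FK. IDH1 and PCK2 are separated most, with Met and Met+FK libraries at 4490.1 or above and the others at 2631 or below.

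GC content moved with these results. The canonical transcripts of the 6 members that rose with Met had a median GC content of 40.4%, those of the 17 that fell 52%, and all genes tested 48.5%. With the trend on GC content and length removed, 3 members were higher (24.8% of all genes) and 23 lower (32.5% of all genes). Of the 23 calls made before the correction, 20 remained in the same direction, and those of PDK1, SUCLG2 and ME2 did not. The 6 calls gained were all lower: DLAT (log2 -0.43), PDP1 (-0.46), PDHX (-0.28), MPC2 (-0.23), PDHA1 (-0.21) and MDH1 (-0.13). All 4 PDH members tested were then lower. IDH1 kept a log2 fold change of 1.42, PCK2 of 1.66 and ME1 of 0.45, which is under 1.5-fold. The scatter plot shows both sets of values.

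**Figure D4:**
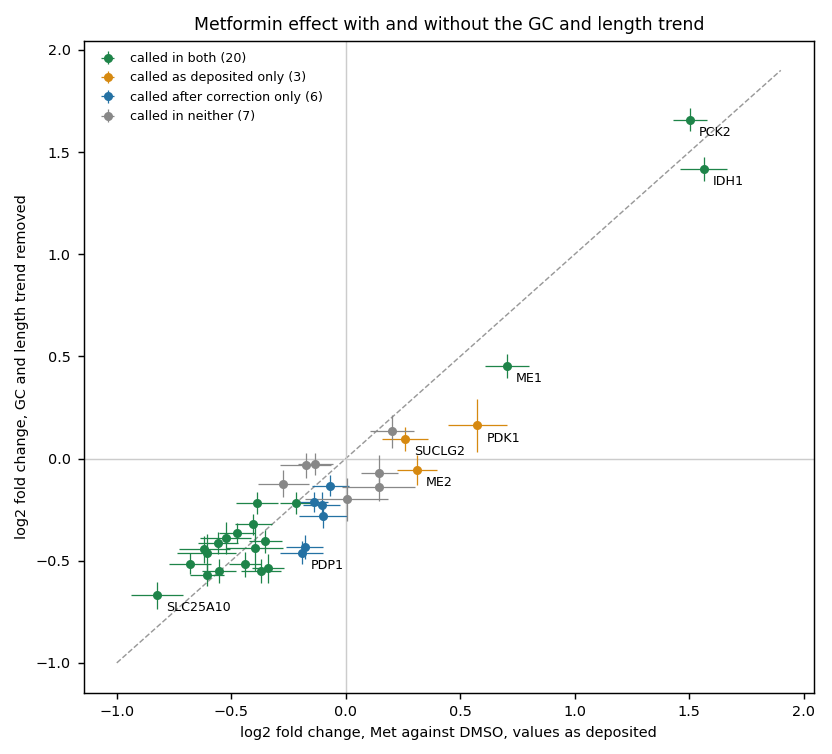
Log2 fold change of the 36 members for Met against DMSO as deposited (horizontal) and with the GC and length trend removed (vertical), bars are 1 SE and the dashed line marks equal values. IDH1, PCK2 and ME1 stay apart from the rest, 20 members are called in both, 3 only as deposited and 6 only after the correction.

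Without the replicate number as a block, FK866 against DMSO changed 6 of these genes, and the block raised that number, as given below. The log2 fold changes of the members lay between -0.30 and 0.49, against -0.83 and 1.56 with metformin. At an adjusted p-value under 0.05, 5 members were higher (11.3% of all genes) and 1 lower (9.84% of all genes), and no member passed 1.5-fold (3.49% of all genes did). At an unadjusted p-value under 0.05 there were 20 (42.2% of all genes), and none passed 1.5-fold by edgeR or DESeq2 either. The 5 were DLD (log2 0.49, adjusted p = 0.0443), SUCLG2 (0.41, 0.0231), ME1 (0.35, 0.0292), PDP1 (0.33, 0.0313) and IDH1 (0.32, 0.041). SLC25A1 was lower (log2 -0.29, adjusted p = 0.0404). DLD had 2460.4, 3363 and 2309 in DMSO and 3314, 4935 and 3252 in FK, and these overlap. For SUCLG2 the values were 907, 1076 and 937 against 1279, 1459.7 and 1139.9, and for PDP1 4833, 5634 and 5565 against 5943, 7697 and 6609.6, each without overlap and with FK replicate 2 the highest. No member was called once DMSO replicate 1, DMSO replicate 3 or FK replicate 2 was left out, whereas without FK replicate 1 there were 8 higher and 9 lower, and without DMSO replicate 2 there were 9 higher and 2 lower. The share of all genes called in these fits was not computed. These counts therefore show that the calls depend on single libraries, and not how the members compare with all genes.

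The same-numbered DMSO and FK libraries deviated together and were read as paired. The replicate block is 1 effect per replicate number, shared by all 12 libraries and not by FK and DMSO alone. It therefore also ties Met and Met+FK to DMSO, which were not read as paired. With this block, 13 members were higher and 11 lower with FK (23.3% and 21.3% of all genes). These calls moved with GC content too. The 5 members called higher without the block have a median GC content of 40% and SLC25A1 has 64.5%. With the trend removed, 2 members were higher, PCK2 (log2 0.38, adjusted p = 0.000482) and SUCLG2 (0.20, 0.0374), and 1 was lower, CS (-0.19, 0.0424), against 4.25% and 6.83% of all genes. With the block as well, 3 were higher, these 2 and IDH1 (0.14, adjusted p = 0.0397), and 2 lower, CS (-0.19, 0.00769) and PDP2 (-0.26, 0.00357), against 7.66% and 12.8% of all genes.

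Both drugs against DMSO gave 7 members higher and 18 lower, against 26.1% of all genes in each direction, and the members that fell were 50% of those tested. The median log2 fold change was -0.25 over the members and 0.014 over all genes. Past 1.5-fold were 6 members (25.1% of all genes were): PCK2 (3.1-fold, adjusted p = 9.09e-10), IDH1 (3.08-fold, 1.65e-08), ME1 (1.64-fold, 2.29e-05) and PDK1 (1.56-fold, 0.000776) higher, and SLC25A10 (1.74-fold, 3.99e-05) and SLC25A1 (1.54-fold, 6.04e-05) lower. The other members that rose were ME2, SUCLG2 and MPC1, and the lower calls included 8 of 10 members from citrate to succinyl-CoA and 4 of 4 of citrate and dicarboxylate export. With the GC and length trend removed, 5 members were higher and 21 lower, against 27.3% and 33% of all genes. PDK1 then stood at log2 0.28 (adjusted p = 0.0726) and ME2 at 0.01 (0.898), and the other 23 calls remained. This comparison has its DMSO libraries in common with those above.

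When FK866 was added to metformin, no change of a member passed the adjusted threshold in limma, with 0 higher (0.0911% of all genes) and 0 lower (0.0065%). At an unadjusted p-value under 0.05 there were 0 (6.84% of all genes), and edgeR and DESeq2 called 0 as well. The differences Met+FK minus Met lay between log2 -0.17 (PDK3) and 0.22 (PC), and the smallest adjusted p-value was 0.761. With the GC and length trend removed the counts were again 0 higher and 0 lower (0.62% and 0.418% of all genes), with differences from -0.15 (PDK3) to 0.17 (PC). For IDH1, PCK2 and ME1 the differences were 0.06, 0.13 and 0.01, and the libraries of both groups overlapped.

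Adding metformin to FK866 gave 6 members higher (20.5% of all genes) and 14 lower (21.7% of all genes), 38.9% of the members tested. Past 1.5-fold were 4 members (18.6% of all genes were): PCK2 (2.74-fold, adjusted p = 4.01e-09) and IDH1 (2.46-fold, 2.07e-07) higher, and PDK3 (1.82-fold, 7.22e-05) and IDH3A (1.6-fold, 2.05e-05) lower. The PDK3 libraries with FK alone (380.4 to 542) and with both drugs (229 to 255) did not overlap, nor did those of IDH3A (2714 to 3127 and 1723 to 1964). The PDH members PDHB (log2 -0.44, adjusted p = 0.000187) and DLAT (-0.44, 0.000497) and the phosphatase PDP1 (-0.43, 0.00189) also fell. The higher calls besides PCK2 and IDH1 were ME1, MPC1, PDK1 and PDP2, and without FK replicate 3 the higher calls numbered 3 (share of all genes not computed). With the GC and length trend removed, 8 members were higher and 22 lower, against 25.8% and 28.5% of all genes.

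The interaction asks whether the effect of FK866 with metformin differs from that without. It passed the adjusted threshold for none of the 36 members in limma (0 higher, 0.0065% of all genes, and 0 lower, 0.052%), edgeR or DESeq2. At an unadjusted limma p-value under 0.05 there were 15 (30.5% of all genes). The smallest adjusted limma p-value was 0.112 (PC, log2 0.45, SE 0.16). With the GC and length trend removed, 0 were higher and 0 lower (0.294% and 0.307% of all genes). The replicate block is shared by all treatments, although Met and Met+FK were not read as paired with DMSO. With it, 9 members were called higher and 9 lower (15.5% and 16.5% of all genes). With both the block and the correction, 4 were higher, FH (log2 0.28, adjusted p = 0.042), CS (0.27, 0.0208), SUCLG1 (0.26, 0.0307) and PDP2 (0.30, 0.0291), and 1 was lower, PCK2 (-0.29, 0.0142), against 4.81% and 2.16% of all genes. In the corrected values the pairing of Met with Met+FK libraries no longer passed the rule for pairing.

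A further 38 genes around the same reactions, among them the succinate dehydrogenase subunits, the lactate dehydrogenases and the glutamate and aspartate enzymes, were counted by the same test. Of 37 tested, 4 rose and 16 fell with Met (24.9% and 25.9% of all genes). With the GC and length trend removed, 5 rose and 20 fell (24.8% and 32.5% of all genes). With FK 4 were higher and 3 lower (11.3% and 9.84% of all genes), or 0 and 1 with the trend removed (4.25% and 6.83%). Against DMSO, Met+FK had 8 higher and 15 lower (26.1% of all genes in each direction), corrected 6 and 18 (27.3% and 33%). Against FK it had 6 higher and 12 lower (20.5% and 21.7%), corrected 9 and 15 (25.8% and 28.5%). Between Met+FK and Met 0 were called, also after the correction. Of 19 transcription factors and coactivators tied to these enzymes in textbooks, 17 were tested. With Met 7 rose and 4 fell (24.9% and 25.9% of all genes), or 8 and 7 with the trend removed (24.8% and 32.5%). With FK 2 were higher and 2 lower with and without it. Without the correction, the FK counts of both lists and the 4 regulators that fell with Met lie near the share over all genes. Against DMSO, Met+FK had 7 of the regulators higher and 4 lower (corrected 8 and 6), against FK 6 and 3 (corrected 6 and 5), and against Met 0 and 0 (corrected 1 and 0). The shares of all genes are those given for the first list, and against Met 0.0911% and 0.0065% (corrected 0.62% and 0.418%).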

How the data were processed

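The authors' pipeline, per the methods, was cutadapt for trimming, STAR with hg38 for alignment, featureCounts for read pairs per gene and DESeq2 for normalization. Which annotation and which strand setting were used is not given in the sources used here. The deposited values are a signal, read counts divided by the size factor of each library, and 100% gave whole reads within 0.01 when divided by their smallest step. The table has 36601 genes, 9803 of them without reads.

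Comparisons were tested by limma-trend (R 4.3.3, limma 3.58.1) on log2(normalized count + 1) for every gene whose mean reached 10, with all 12 libraries in 1 fit. On simulated counts this fit called 49 of 100 changes of 1.5-fold and 86 of 100 of 2-fold in the right direction. It also called 6 of 15176 unchanged genes for Met against DMSO. The simulation held no GC trend and no pairing of libraries. Its spread between replicates was assumed, and its changed genes were drawn from all genes tested, not from the members. It also changed far fewer genes than were called with Met (24.9% higher and 25.9% lower), which affects the adjustment. These rates are therefore not the rates at which changes of the members are found. Alternatives were pseudocounts of 0.1 and 10, other gene filters, scaling to the same total or by TMM, only the libraries compared, the replicate block, edgeR 4.0.16 and DESeq2 1.42.0 on the recovered reads, each library left out, and removal of a loess trend (span 0.3) on GC content and log2 length of the Ensembl canonical transcript (GENCODE 44, 99.7% of genes tested). Positions are those of the table, counted from 1. Between replicates, chi-square divided by its degrees of freedom was 5.75 to 52, above sampling noise, so none was counted as a copy.

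Same-numbered libraries were read as paired where every correlation of their deviations from the group means across genes passed 0.1. This held for FK with DMSO (0.252, 0.42 and 0.219) and Met+FK with Met (0.171, 0.2 and 0.226), from the values alone, and after the GC correction for FK with DMSO only (0.136, 0.171 and 0.131, against 0.159, 0.0964 and 0.0738).

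The members and lists were chosen with earlier results of these data known. Members past 1.5-fold in any comparison are given by library, members of isoenzyme families by treatment means, and of the others, in each role, the 2 with the smallest adjusted p-value in Met against DMSO first. Promoter sequences are from RefSeq. Shares per kb use the canonical transcript. Some items are not reported here.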

Additional observations from a re-analysis of the deposited data

How the results depend on the processing

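The counts of members in this section show how the calls move with the setting. Most stand without the share of all genes called in the same fit, so they do not compare the members with all genes. The calls for metformin against DMSO were stable under most alternatives. All 23 were kept under both pseudocounts, the stricter gene filter, TMM scaling, the smaller fit, the replicate block, edgeR and DESeq2, while SUCLG2 was lost with all genes tested, and SUCLG1 and PDK3 with scaling to the same total, which moves the median of all genes from 0.012 to 0.13 on the log2 scale. With the GC and length trend removed, with or without the block, 3 members were higher in place of 6, and ME2 turned to a log2 fold change of -0.057 in both. The 5 members lower past 1.5-fold became 1 with scaling to the same total, 3 with TMM, 1 with the GC correction with or without the block, 2 with edgeR, and 3 to 8 when 1 library was left out (3 without Met replicate 1, 8 without Met replicate 3), and ACLY and PDK2 (1.52-fold) lie just above that limit, with CS and IDH3B (1.47-fold) just below it.

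The FK against DMSO counts are the least stable. The 5 higher became 3 with all genes, 0 with only the libraries compared, 13 with the replicate block, 2 with the GC correction, 3 with both, 8 with DESeq2, and 0 to 9 with 1 library left out (0 without DMSO replicate 1, DMSO replicate 3 or FK replicate 2, 3 without Met replicate 1, FK replicate 3, Met+FK replicate 1 or Met+FK replicate 2, 8 without FK replicate 1, 9 without DMSO replicate 2). The 1 lower became 0 with all genes, 0 with only the libraries compared, 0 with edgeR, 11 with the block, 2 with the block and the GC correction, and 0 to 9 with 1 library left out (9 without FK replicate 1, 4 without Met replicate 3, 2 without DMSO replicate 2, and 0 without DMSO replicate 1 or 3, FK replicate 2 or 3, or Met+FK replicate 1 or 2). Members higher past 1.5-fold, 0 as reported, numbered 0 to 2 with 1 library left out (2 without DMSO replicate 2, 1 without FK replicate 3).

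For Met+FK against DMSO, the 4 members higher past 1.5-fold became 2 with the GC correction, with or without the block, and the 2 lower became 1 with scaling to the same total and 2 to 4 with 1 library left out (4 without Met+FK replicate 3). For Met+FK against FK, the 14 lower became 22 with the GC correction and 24 with the block added, and the 6 higher became 3 to 7 with 1 library left out (3 without FK replicate 3). For the interaction, 0 higher became 9 with the block, 4 with block and GC correction, and 0 to 3 with 1 library left out, and 0 lower became 9, 1, and 0 to 1 (3 and 1 without FK replicate 1).

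For the comparisons not read as paired, Met and Met+FK against DMSO and Met+FK against FK, the replicate block kept all calls and added some, lower (21 for 17, 20 for 18 and 20 for 14) and, in the last 2, higher (8 for 7 and 8 for 6). Beyond what is named, the cause of these changes was not tested. The lowest value of a tested member in any library was 229 normalized counts, and what depth limits among these members was not tested. OGDHL and PDK4, with 17.8 or fewer, were not tested for change.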
